A study of Halocynthia roretzi with 24 samples.

Results

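Of the 16078 gene models in the deposited expression table of *Halocynthia roretzi*, a solitary ascidian, 5 are described here as vegetal maternal transcripts that persist. They are Harore.CG.MTP2014.S126.g14611, Harore.CG.MTP2014.S126.g01852, Harore.CG.MTP2014.S138.g03243, Harore.CG.MTP2014.S264.g00180 and Harore.CG.MTP2014.S338.g12774, and models are given below without the prefix that all identifiers share. The members were given as a list. The criterion behind the list is not given and was inferred here from calls that match it. In the fit described below, all 5 were among the 15 models called higher in the vegetal than in the animal hemisphere at 8 cells. None was called as changed between the stages in whole embryos. These calls are taken below as the choice, and whether other values were used is not known. Of the 15, 8 fell in whole embryos and 0 rose, and the 2 other models without a call both lie on scaffold S964. The levels at 8 cells and the whole-embryo levels at both stages are therefore given as a description, with no test.

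RNA sequencing had been carried out on wild-type embryos, 4 libraries for each of 6 groups, 24 in all. The groups are the whole embryo, the vegetal hemisphere and the animal hemisphere at 110 cells, and the same regions at 8 cells, from animals that the labels place in a southwestern Japanese population kept in culture. The libraries of each group carry replicate numbers 2 to 5, and the labels do not say what a number marks, how the hemispheres were parted or how many embryos were pooled, so a p-value takes in only the spread from library to library. Levels are RPKM, a read count scaled to kilobases of exon and to M (mega) reads of the library, as the authors deposited them, so each is a share of its library and comparable between models per length. No egg library was used here, so "maternal" rests on presence at 8 cells alone. In these bulk samples, fewer cells that hold a transcript and less of it per cell cannot be told apart.

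Ascidian eggs store messenger RNAs that the mother made, and some of these are anchored in one region of the egg and handed down to the cells that inherit it. An early horizontal cleavage parts an animal tier, which gives rise mostly to epidermis and part of the nervous system, from a vegetal tier, which gives rise to endoderm, notochord, muscle and mesenchyme among others. The best known localised maternal RNA of this genus is macho-1, which specifies muscle fate and lies in the posterior vegetal cortex. Many maternal RNAs are cleared as the embryo's own genes become active, while others remain.

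The 5 members lie at 4 places in the genome, on scaffolds of the deposited annotation, whose build is not given in the sources used here. S126.g01852 spans positions 110722 to 221780 of the minus strand of scaffold S126 in 336 coding blocks, with 66274 bases of exons, 1053 of them in the 3′ UTR. S138.g03243 spans positions 8016 to 112579 of the minus strand of scaffold S138 in 349 coding blocks, with 71129 bases of exons and a 3′ UTR of 1105 bases. These are the models with the second most and the most coding blocks of the annotation, and the notes of both name KH.C9.36 as best match. KH identifiers are the style of gene models of *Ciona*, another ascidian genus, and the files pair them with no gene name, so no function is given to any member.

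The other 3 members are shorter. S126.g14611 lies at 111249 to 111749 on the plus strand of S126, with 3 coding blocks of 330 bases in all and no match in its note. S264.g00180 lies at 91036 to 100002 on the plus strand of S264, with 5 coding exons, 2397 bases of exons, 1148 of them 3′ UTR, and KH.C9.257 as its best match. S338.g12774 lies at 89037 to 97323 on the plus strand of S338, with 22 coding exons, 4576 bases of exons, 1219 of them 3′ UTR, and KH.C5.369 as its best match.

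S126.g14611 cannot be measured apart from S126.g01852, while most of the long model lies outside the shared stretch. All 330 exon bases of S126.g14611 lie within the 3′ UTR of S126.g01852, on the opposite strand, and make up 0.498% of that model's exon bases. The hemisphere and whole-embryo libraries did not keep strand, so reads from this stretch fit both models, and how the authors assigned such reads is not given in the sources used here. Another model, S126.g09788 (positions 109754 to 111222, plus strand, no match), lies 26 bases from S126.g14611 and has 174 of its 315 exon bases, 55.2%, in the same 3′ UTR. The long model on the other scaffold has a partner of the same kind: S138.g03104 (positions 7978 to 8627, plus strand, no match) has 394 of its 432 exon bases, 91.2%, in the 3′ UTR of S138.g03243.

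**Figure D1:**
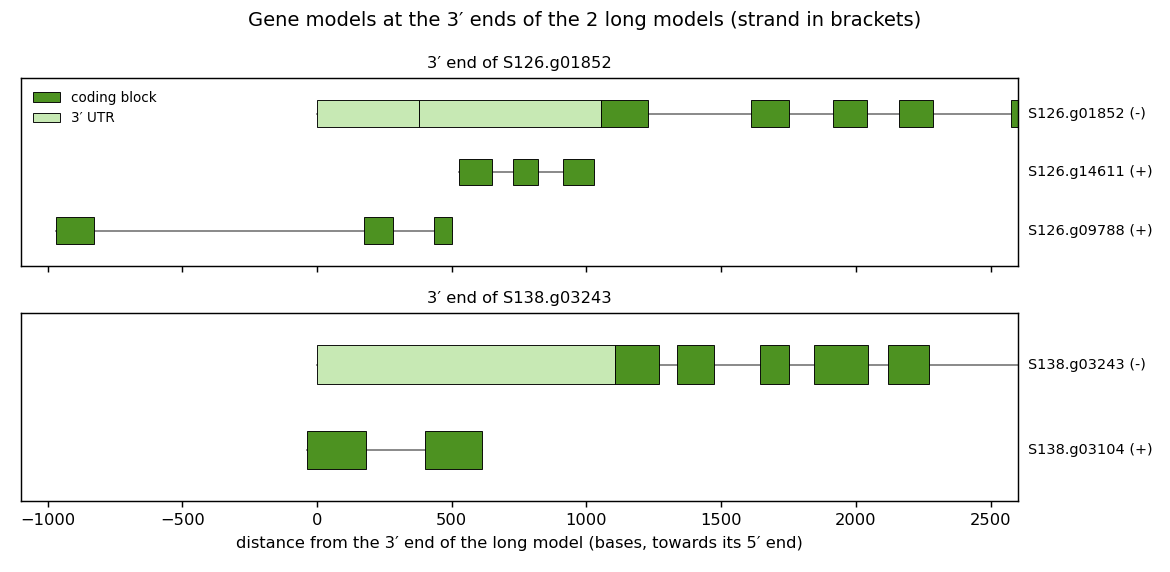
Gene models at the 3′ ends of S126.g01852 (upper panel) and S138.g03243 (lower panel), drawn to scale by distance in bases from the 3′ end of the long model towards its 5′ end. Dark boxes are coding blocks, pale boxes 3′ UTR and lines introns, and models on the plus strand lie over the 3′ UTR of the long model on the minus strand in both panels.

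The 2 long models also resembled each other block by block. Aligned in order from the 5′ end, 239 coding blocks had the same length in both, 71.1% of the 336 blocks of S126.g01852 and 68.5% of the 349 blocks of S138.g03243. The longest block of equal length had 658 bases and was block 167 of S126.g01852 and block 177 of S138.g03243. Against S26.g12147, which follows them with 144 coding blocks, the same count was 15 for S126.g01852 and 13 for S138.g03243. Equal lengths do not give sequence identity, which was not analysed here. If the models are near-identical copies, reads that match both may have been split or dropped, so their separate levels are uncertain.

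**Figure D2:**
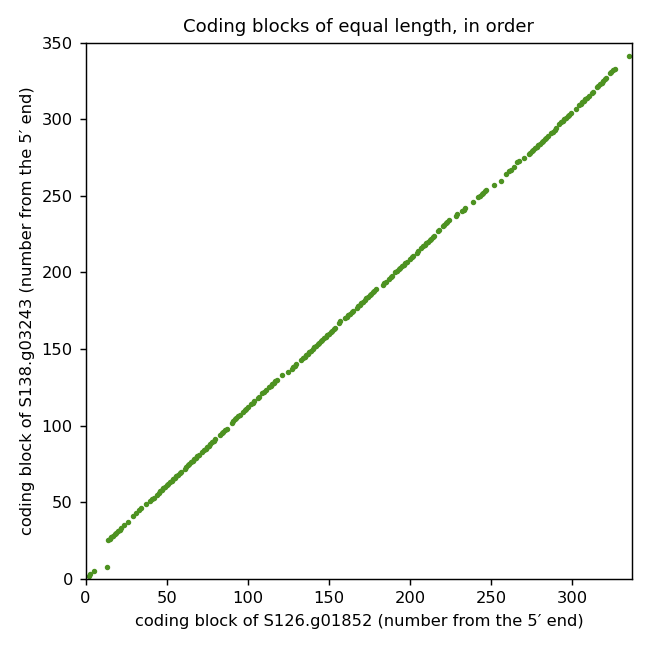
Coding blocks of equal length in S126.g01852 (x axis, block number from the 5′ end) and S138.g03243 (y axis, block number from the 5′ end), matched in order. Each of the 239 points is a pair of blocks, and the points follow the diagonal along nearly the whole of both models.

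All 5 members were higher in vegetal than in animal hemispheres at 110 cells, a difference outside the calls taken as the choice. Each was higher in 4 of 4 replicate numbers, and in each the 4 vegetal libraries lay above the 4 animal libraries. The test was limma's moderated test on log2(RPKM + 1) over the 12703 models that reached 1 RPKM in 4 or more libraries, all 24 libraries in 1 fit, two-sided, with Benjamini-Hochberg adjustment over all models tested and a threshold of 0.05. All 5 members passed the filter on low values and all 5 were called vegetal-higher, where 5.51% of all tested models were called vegetal-higher and 3.64% animal-higher. Vegetal libraries all above animal libraries were seen in 5.86% of tested models. S126.g14611 lies wholly within the 3′ UTR of S126.g01852, and the long models may share reads, so the 5 calls are not 5 separate results. The median log2 difference of the members was 1.60, with a range of 0.94 to 1.87, beside a median of -0.06 over all tested models. The fit that called the 8-cell differences also took its spread from all 24 libraries, the hemispheres at 110 cells among them. The members were picked on differences in 8-cell libraries that carry the same replicate numbers, and whether a number ties libraries of the 2 stages together was not tested for the hemispheres. The criterion was also inferred, so whether the hemispheres at 110 cells entered the choice is not known. For these reasons the count may not be wholly independent of the choice.

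S126.g14611 was the most abundant member per length. It stood at 506, 543, 544 and 586 RPKM in vegetal libraries 2 to 5 at 110 cells, against 145, 120.0, 119 and 227 RPKM in the animal libraries of the same numbers. The groups lay far apart, and animal library 5 was the highest of its group. The means were 544 ± 32.8 and 153 ± 51.0 RPKM (SD, n = 4 each), a ratio of 3.56 (log2 difference 1.87 ± 0.20 SE, 95% interval 1.46 to 2.29, limma adjusted p = 2.63e-07).

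The long model over the same stretch showed a difference of like size. S126.g01852 stood at 27.3, 31.2, 27.5 and 33.1 RPKM in vegetal libraries at 110 cells, against 8.43, 7.80, 7.48 and 10.3 RPKM in animal libraries. Every vegetal library held more than 3 times the level of the animal library of its number, with ratios of 3.22 to 4.0. The means were 29.8 ± 2.88 and 8.50 ± 1.26 RPKM (SD, n = 4 each), a ratio of 3.5 (log2 1.70 ± 0.17 SE, 95% interval 1.35 to 2.05, limma adjusted p = 7.44e-08).

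S138.g03243, the other model matching KH.C9.36, was at a similar level. It stood at 29.3, 21.8, 22.8 and 27.0 RPKM in vegetal libraries at 110 cells, against 9.32, 7.20, 5.75 and 8.52 RPKM in animal libraries. Number 2 was the highest in both hemispheres, and no animal library came near a vegetal one. The means were 25.2 ± 3.54 and 7.70 ± 1.56 RPKM (SD, n = 4 each), a ratio of 3.28 (log2 1.60 ± 0.18 SE, 95% interval 1.22 to 1.98, limma adjusted p = 7.25e-07).

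S264.g00180 and S338.g12774 had smaller differences at 110 cells. S264.g00180 stood at 111, 87.2, 131 and 114 RPKM in vegetal libraries, against 45.6, 56.2, 65.7 and 60.8 RPKM in animal libraries. Its groups did not overlap, and number 3 had the smallest ratio, 1.55. The means were 111 ± 18 and 57.0 ± 8.59 RPKM (SD, n = 4 each), a ratio of 1.94 (log2 0.94 ± 0.15 SE, 95% interval 0.63 to 1.26, limma adjusted p = 7.57e-05).

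S338.g12774 was the member with the least firm call. It stood at 68.0, 58.4, 54.3 and 77.5 RPKM in vegetal libraries at 110 cells, against 44.4, 21.99, 22.3 and 34.95 RPKM in animal libraries. The highest animal library, number 2, lay below the lowest vegetal one, and the number 2 ratio was the smallest at 1.53. The means were 64.5 ± 10.4 and 30.9 ± 10.9 RPKM (SD, n = 4 each), a ratio of 2.09 (log2 1.09 ± 0.28 SE, 95% interval 0.51 to 1.66, limma adjusted p = 0.0108). The call was lost without replicate 3 of every group (log2 0.99, limma adjusted p = 0.124), without replicate 5 of every group (log2 1.07, limma adjusted p = 0.076) and without animal library 3 alone (log2 0.95, limma adjusted p = 0.0506).

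**Figure D3:**
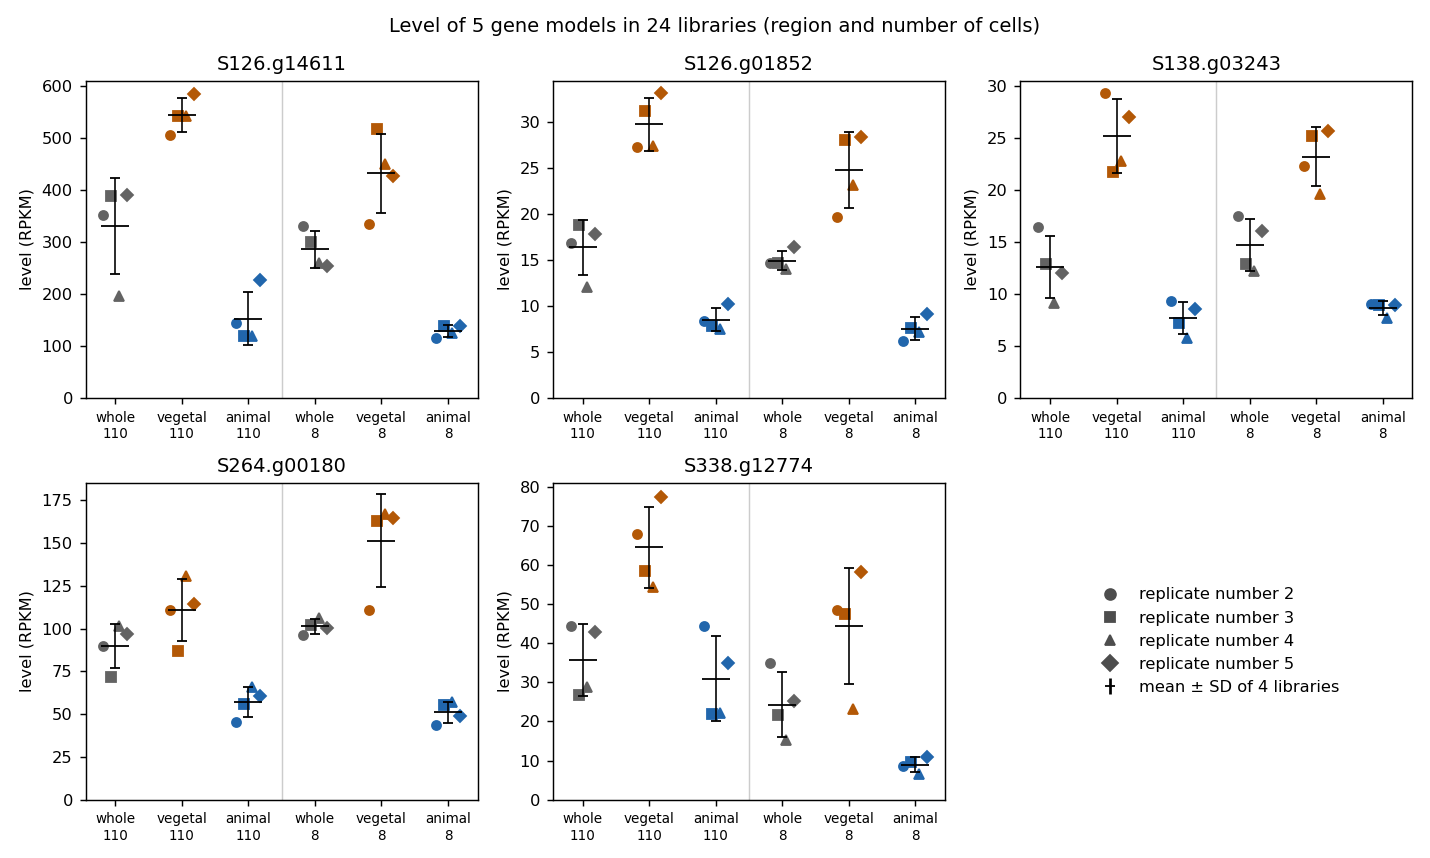
Level of each member in RPKM (y axis, linear from 0) in the 24 libraries, by region and number of cells (x axis). Symbols mark the replicate number, and bars give the mean ± SD of 4 libraries. In every panel the vegetal libraries lie above the animal libraries of the same stage, and S338.g12774 is the panel in which the animal libraries at 110 cells lie above all animal libraries at 8 cells.

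Other measures moved with the hemispheres in these libraries. The 11 models of scaffold S964, one of which is annotated as ND5, a subunit of respiratory complex I, summed to 4902 to 10382 RPKM in vegetal and 2229 to 2662 RPKM in animal libraries at 110 cells, and to 4224 to 5779 and 1753 to 1902 RPKM at 8 cells. Depth, inferred from the steps between low RPKM values, was lower in vegetal than in animal libraries, at 4.42 ± 0.79 and 6.55 ± 0.86 M reads in genes at 110 cells and 5.63 ± 0.92 and 7.61 ± 1.22 M at 8 cells (SD, n = 4 each), within a range of 3.67 to 9.22 M over all 24 libraries. Models whose animal level was 4-fold or more above the vegetal level in the remaining numbers stood at a median of 16.96% of their animal level in vegetal library 5 at 110 cells, against 7.45%, 7.88% and 7.56% in vegetal libraries 2, 3 and 4. Without that library all 5 members were still called, with log2 differences of 1.84, 1.65, 1.57, 0.92 and 0.995 in the order above. The part of S964 and of depth in the members' differences was not tested. The members rested on many reads: in the shallowest case 190 reads for S338.g12774 and 228 for S126.g14611, and 647 or more for the other 3.

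At 8 cells, where the difference had chosen the members, vegetal means exceeded animal means 2.69-fold to 4.93-fold. There the 15 calls made up 0.118% of tested models, and vegetal libraries all above animal libraries were seen in 1.09%. S126.g14611 stood at 335, 519, 451 and 427 RPKM in vegetal libraries 2 to 5, against 115, 139, 125.9 and 139 RPKM in animal libraries, a ratio of means of 3.34. S126.g01852 stood at 19.7, 28.1, 23.1 and 28.4 RPKM in vegetal libraries, against 6.17, 7.67, 7.17 and 9.20 RPKM in animal libraries, a ratio of 3.29. In both models vegetal library 2 was the lowest of its group and still held more than the highest animal library.

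S138.g03243 had the smallest ratio of the members at 8 cells. It stood at 22.3, 25.2, 19.7 and 25.7 RPKM in vegetal libraries, against 9.09, 8.91, 7.67 and 8.91 RPKM in animal libraries, a ratio of means of 2.69. S264.g00180 stood at 111, 163, 167 and 165 RPKM in vegetal libraries, against 43.6, 55.2, 56.9 and 48.8 RPKM in animal libraries, a ratio of 2.96. S338.g12774 had the highest ratio, 4.93, with 48.4, 47.6, 23.3 and 58.1 RPKM in vegetal libraries, against 8.70, 9.57, 6.70 and 11.04 RPKM in animal libraries. Its vegetal library 4 lay far below the other vegetal libraries, and its animal library 4 was likewise the lowest of its group.

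Set beside each other, the vegetal to animal ratio was larger at 110 than at 8 cells in the 3 models of S126 and S138 and smaller in the other 2. It was 3.56 at 110 cells and 3.34 at 8 cells for S126.g14611, 3.5 and 3.29 for S126.g01852, and 3.28 and 2.69 for S138.g03243. It was 1.94 at 110 cells and 2.96 at 8 cells for S264.g00180, and 2.09 and 4.93 for S338.g12774. Whether the ratio changed between stages was not tested, because the 8-cell libraries chose the members. For S338.g12774 the 4 ratios within a number were 1.53 to 2.66 at 110 cells and 3.48 to 5.57 at 8 cells, with no overlap, and for S264.g00180 they were 1.55 to 2.44 and 2.54 to 3.37, also with no overlap. For S138.g03243 they lay apart in the other direction, at 3.02 to 3.96 at 110 cells and 2.45 to 2.88 at 8 cells, and for both models of S126 they overlapped. The share of all tested models with ratios apart between the stages was not counted. Choice on a high ratio at 8 cells favours a lower one at 110 cells, and its part was not tested.

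**Figure D4:**
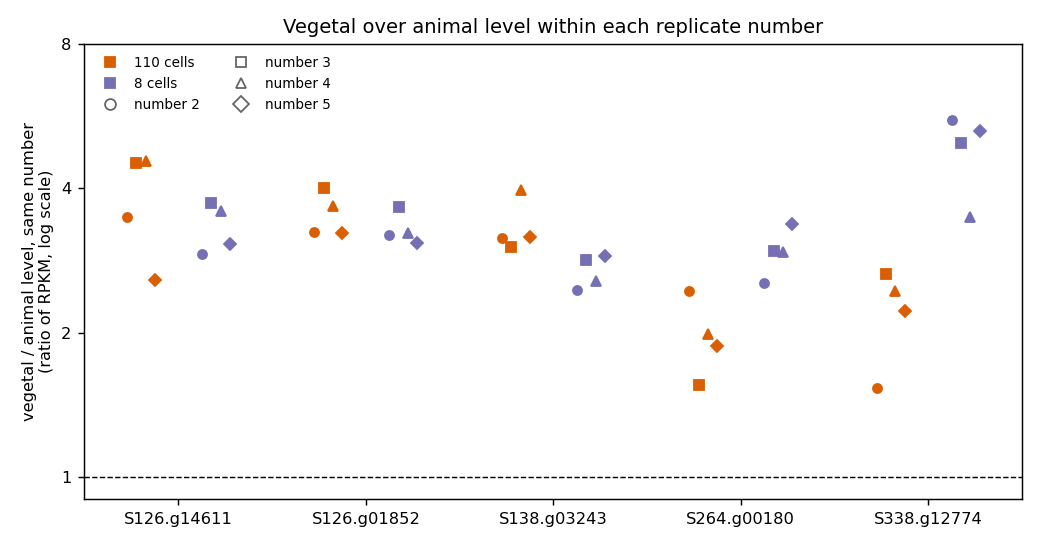
Vegetal over animal level within each replicate number (y axis, ratio of RPKM on a log scale) for each member (x axis), at 110 cells (left of each pair) and at 8 cells (right). All 40 ratios lie above the dashed line at 1, and for S264.g00180 and S338.g12774 the 110-cell ratios all lie below the 8-cell ratios, while for S138.g03243 they all lie above them. How many of all tested models lie apart in this way was not counted.

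In whole embryos 4 of the 5 members differed little between the stages, and the choice had required that none be called. Over all tested models 24.4% were called as changed in whole embryos, and by the choice 0 of the 5 members. The ratios of mean level at 110 over 8 cells were 0.859 to 1.47, with a median log2 difference of 0.11 beside 0.04 over all tested models. The 8 vegetal-higher models that fell stood at 0.0956 to 0.621 of their 8-cell level. The nearest of these to the members was S447.g02162, at 126.4 ± 14.9 RPKM at 110 cells and 204 ± 12.6 RPKM at 8 cells (SD, n = 4 each, log2 -0.69), while the members ran from -0.22 for S138.g03243 to 0.56 for S338.g12774.

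For the 2 models of S126 the whole-embryo levels at the stages overlapped. S126.g14611 stood at 352, 388, 196 and 391 RPKM in whole embryos of 110 cells, against 331, 300.0, 261 and 255 RPKM at 8 cells, means of 332 ± 92.4 and 287 ± 35.7 RPKM (SD, n = 4 each). S126.g01852 stood at 16.9, 18.8, 12.1 and 17.8 RPKM at 110 cells, against 14.7, 14.7, 14.05 and 16.4 RPKM at 8 cells, means of 16.4 ± 2.99 and 14.97 ± 1.01 RPKM. In both models 3 of 4 numbers were higher at 110 cells, and library 4 was the exception and the lowest of its group.

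S138.g03243 and S264.g00180 were lower at 110 cells in each of the 4 numbers, with overlap between the stages. S138.g03243 stood at 16.4, 12.9, 9.18 and 12.03 RPKM in whole embryos of 110 cells, against 17.5, 12.9, 12.2 and 16.1 RPKM at 8 cells, means of 12.6 ± 2.98 and 14.7 ± 2.53 RPKM (SD, n = 4 each). S264.g00180 stood at 89.8, 71.6, 101 and 96.8 RPKM at 110 cells, against 96.1, 102, 106 and 101 RPKM at 8 cells, means of 89.9 ± 13.1 and 101 ± 4.21 RPKM. The difference between the means was smaller than the SD of the 110-cell libraries in both models. For S264.g00180 it was larger than the SD of the 8-cell libraries.

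S338.g12774 did not keep to a steady level. It stood at 44.3, 26.7, 28.7 and 42.8 RPKM in whole embryos of 110 cells, against 35.0, 21.6, 15.4 and 25.3 RPKM at 8 cells, and was higher at 110 cells in each of the 4 numbers. The ratio of means was 1.47. S338.g12774 was the 1 member that a fit blocked by replicate number called between the stages in whole embryos. Of 12703 models, that fit called 2464 higher and 2137 lower at 110 cells, so such a call was common. It also draws on the libraries of the choice and is no separate support. Its animal hemispheres held 30.9 ± 10.9 RPKM at 110 cells and 9.0 ± 1.82 RPKM at 8 cells (SD, n = 4 each), a ratio of 3.43 with no overlap, and its vegetal hemispheres 64.5 ± 10.4 and 44.4 ± 14.8 RPKM, a ratio of 1.45. The label of a persisting transcript thus fits S338.g12774 only in that it was not lost: its level was higher at 110 cells in every region, most of all in the animal hemisphere.

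Within the hemispheres the other 4 members stood close to their 8-cell levels, except S264.g00180 in the vegetal hemisphere. The ratios of mean level at 110 over 8 cells in the animal hemisphere were 1.18 for S126.g14611, 1.12 for S126.g01852, 0.891 for S138.g03243 and 1.12 for S264.g00180. In the vegetal hemisphere they were 1.26, 1.20, 1.09 and 0.732 in the same order. S264.g00180 was thus the member whose vegetal level was lower at 110 cells, at 111 ± 18 RPKM against 151 ± 27.1 RPKM at 8 cells (SD, n = 4 each), lower in 3 of 4 numbers, with a ratio of 1.003 in number 2. Vegetal library 2 at 8 cells, at 111 RPKM, was far below the other 3 of its group.

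The order of the 6 groups was the same for both models of S126: vegetal at 110 cells, vegetal at 8, whole at 110, whole at 8, animal at 110 and animal at 8. For both, libraries did not overlap between whole embryos of 8 cells and animal hemispheres of 110 cells, while the stages of 1 region overlapped. Within the 110-cell stage, whole library 4 of S126.g14611, at 196 RPKM, lay below animal library 5, at 227 RPKM, and for S126.g01852 whole and animal libraries did not overlap. For S138.g03243 the vegetal groups again led, and whole and animal levels were each slightly lower at 110 than at 8 cells, with overlap between the stages. For S264.g00180 the vegetal level at 8 cells was the highest mean of the 6, and for S338.g12774 the vegetal level at 110 cells. For S338.g12774 the ranges of neighbours in the order overlapped down to the whole embryo of 8 cells, and only the animal hemisphere at 8 cells lay clear below.

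Whole embryos lay between the hemispheres. On a scale within each number where the animal library is 0 and the vegetal library 1, the whole-embryo library at 110 cells stood at 0.461 ± 0.202 for S126.g14611, 0.370 ± 0.113 for S126.g01852, 0.284 ± 0.103 for S138.g03243 and 0.598 ± 0.0902 for S264.g00180 (SD, n = 4 each). For S338.g12774 it was 0.128 ± 0.0931, close to the animal level, and in 1 of the 4 numbers it lay just below that level, at -0.00387. The other 695 models called vegetal-higher at 110 cells had a median of 0.413 with quartiles of 0.263 and 0.604. At 8 cells the members' means ran from 0.424 to 0.556.

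The ratio between the 2 overlapping members varied little between the regions, while that of the partners varied more. The level of S126.g14611 was 15.1 to 22.5 times that of S126.g01852 over the 24 libraries, with a median of 18.3. Weighted by exon length, S126.g14611 held 7.503% to 11.2% as many reads as S126.g01852 (median 9.10%), on 0.498% of the bases. Per base, the stretch inside the 3′ UTR was thus given many more reads than the long model as a whole. The partners S126.g09788 and S138.g03104 stood at 3.93 to 13.2 and 5.25 to 19.96 times the level of their long models over the libraries, with medians of 5.77 and 7.88.

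These partners were also vegetal-higher at 110 cells. S126.g09788 averaged 207 ± 82.9 RPKM in the vegetal and 54.9 ± 8.32 RPKM in the animal hemisphere (SD, n = 4 each), a ratio of 3.76 (log2 1.83 ± 0.31 SE, limma adjusted p = 0.000158). S138.g03104 averaged 228 ± 153 and 63.6 ± 29.0 RPKM, a ratio of 3.59 (log2 1.71 ± 0.41 SE, limma adjusted p = 0.0058). Their exons lie mostly in the 3′ UTR of a member, so their values are not separate evidence.

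Between the 2 long models the balance differed between the stages in these libraries. The level of S138.g03243 over that of S126.g01852 was 0.675 to 1.47 over the 24 libraries, with a median of 0.902. It was lower at 110 than at 8 cells in 12 of 12 pairs of libraries of the same region and number. Averaged over the regions within each number, the log2 change was -0.29 ± 0.05 (SD over 4 numbers), a ratio of 0.819 between the stages. The ratio was also tied to the number: number 2 was the highest in all 6 groups, with a median of 1.12, against 0.888, 0.840 and 0.867 in numbers 3, 4 and 5. The 12 pairs share 4 numbers, so they are not 12 independent results. An exact sign-flip test over the 4 numbers gave p = 0.125 (two-sided), the smallest value that 4 numbers allow. It could not have passed 0.05, so it cannot decide whether the balance depends on stage. The pattern was also seen in the values first and draws on the libraries of the choice.

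**Figure D5:**
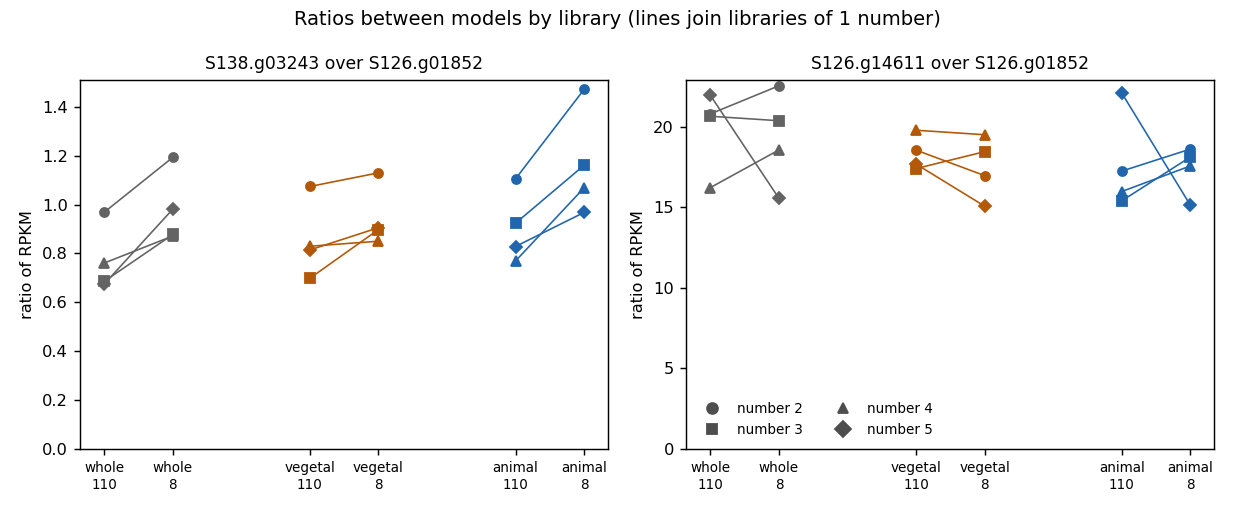
Ratio of RPKM of S138.g03243 over S126.g01852 (left panel) and of S126.g14611 over S126.g01852 (right panel), by region and number of cells (x axis), with lines joining libraries of 1 number. In the left panel all 12 lines are lower at 110 than at 8 cells and number 2 lies above the other numbers, and in the right panel the lines run in both directions.

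Apart from these partners, no tested model beside a member was called vegetal-higher at 110 cells, and 1 was called animal-higher. On S126, S126.g11850 averaged 25.4 RPKM in the vegetal and 30.5 RPKM in the animal hemisphere (limma adjusted p = 0.662), and S126.g10407 averaged 11.9 and 10.3 RPKM (limma adjusted p = 0.857). On S138, S138.g10752 averaged 17.5 and 23.5 RPKM (limma adjusted p = 0.351) and S138.g14205 3.30 and 3.16 RPKM (limma adjusted p = 0.955). S138.g05688, which shares 22 exon bases with the 5′ end of S138.g03243 and the best match KH.C9.36, averaged 3.19 and 3.23 RPKM (limma adjusted p = 0.994). A p that misses the threshold does not show that these levels are equal.

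Beside S264.g00180, S264.g04689 averaged 13.1 RPKM in the vegetal and 14.2 RPKM in the animal hemisphere (limma adjusted p = 0.912), and S264.g10485 was too low to be tested. Beside S338.g12774, S338.g12334 was likewise too low, and S338.g09850 was animal-higher, at 0.922 RPKM in the vegetal and 3.86 RPKM in the animal hemisphere (log2 -1.30 ± 0.34 SE, limma adjusted p = 0.012). That neighbour lies 6148 bases away on the other strand and names another match, KH.C5.352.

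Among 18 further models that share a best match with a member, 11 could be tested, and 3 were vegetal-higher and 0 animal-higher at 110 cells. Of the 13 sharing KH.C9.36, 7 could be tested. S24.g02028 averaged 32.5 RPKM in the vegetal and 4.52 RPKM in the animal hemisphere at 110 cells, but 3.54 and 3.88 RPKM at 8 cells, and S901.g10228 averaged 44.7 and 0.580 RPKM at 110 cells, but 0.0899 and 0.112 RPKM at 8 cells. At 110 cells the log2 differences were 2.61 ± 0.35 SE for S24.g02028 and 4.87 ± 0.24 SE for S901.g10228, with limma adjusted p of 6.31e-06 and 1.70e-12. Both called models of this match were therefore low at the earlier stage, unlike the 2 long members. Their matches differ in strength by the e-value in the notes, which is smaller for a closer match. It is 0.0 for both long members and 3e-33 for S24.g02028, and for S901.g10228 the note gives only the word "low". How closely these models are related to the members was not tested. Of the 3 sharing KH.C9.257, 2 could be tested and 0 were called: S139.g04292 averaged 10.9 RPKM in the vegetal and 12.1 RPKM in the animal hemisphere (limma adjusted p = 0.86) and S15.g14311 8.23 and 9.55 RPKM (limma adjusted p = 0.836).

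Of the 2 further models sharing KH.C5.369, both were tested and 1 was called. S480.g09061, not called, averaged 0.999 RPKM in the vegetal hemisphere at 110 cells and was listed at 0 in all 4 animal libraries (limma adjusted p = 0.0768). The other was the non-member closest to S338.g12774. S2345.g02292, a short model of 286 exon bases at 1132 to 1719 on the minus strand of S2345, averaged 61.9 RPKM in the vegetal and 28.8 RPKM in the animal hemisphere at 110 cells, a ratio of 2.15 (log2 1.24 ± 0.39 SE, limma adjusted p = 0.048). At 8 cells it averaged 33.5 RPKM in the vegetal and 9.61 RPKM in the animal hemisphere. Its mean level too was higher at 110 cells in both hemispheres, and S338.g12774 stood at 0.518 to 1.83 times it over the 24 libraries, with a median of 1.20. Whether these are parts or copies of 1 gene was not tested.

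Likeness was measured by Pearson's r of log2(RPKM + 1) over the 24 libraries among 9458 tested models with a mean of at least 5 RPKM, the members left out, as a description. Libraries fall into 6 groups and share numbers, so r mostly reflects the group pattern, and no p is given. The 2 non-members most like S338.g12774 were S2345.g02292 (r = 0.93) and S96.g02551 (r = 0.87), which averaged 41.6 RPKM in the vegetal and 25.4 RPKM in the animal hemisphere at 110 cells and 15.3 and 7.61 RPKM at 8 cells. The 2 non-members most like S264.g00180 were S278.g09835 (r = 0.86) and S236.g13376 (r = 0.83). S236.g13376, one of the 15 models called at 8 cells, averaged 101 RPKM in the vegetal and 29.0 RPKM in the animal hemisphere at 110 cells and 197 and 46.6 RPKM at 8 cells, so its vegetal level too was lower at the later stage.

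For the models of S126 and S138 the most alike non-members were in part their own neighbours. S472.g00738 led for S126.g14611 (r = 0.82) and S126.g01852 (r = 0.84). It averaged 308 ± 22.6 RPKM in the vegetal and 214 ± 34.6 RPKM in the animal hemisphere at 110 cells (SD, n = 4 each), a flatter pattern than that of the members. S964.g07186 came second for S126.g14611 (r = 0.79) and S126.g09788 for S126.g01852 (r = 0.83), and S126.g09788 (r = 0.87) and S138.g03104 (r = 0.83) led for S138.g03243. Among the members, r was 0.98 between S126.g14611 and S126.g01852 and 0.93 between the 2 long models, which stand on different scaffolds. It was lowest, at 0.59, between S264.g00180 and S338.g12774.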

How the data were processed

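The authors deposited RPKM values for 16078 gene models in 24 libraries and an annotation of 16082 models. Trizol-extracted total RNA went into TruSeq libraries, which for these samples were not strand-specific, per the labels' protocols. HISAT2 is the only tool that the submitters' processing notes name. No source used here names the read counter or the genome build or says how multi-matching reads were handled. RPKM times exon length summed to 1.01 to 1.03 M per library. Depth was inferred from the steps between low RPKM values, of which 78.5% to 86.4% lay within 0.1 reads of a whole number (20% by chance). Most recovered counts were even, 73.2% to 90.2%, so a step may stand for 1 read of a pair, and no count model was used. Intervals cover the spread between libraries.

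Tests used limma 3.58.1 in R 4.3.3, with a trend in the prior variance, a pseudocount of 1 RPKM and 6 groups in 1 fit. The fit was tested on simulated data. Fold changes on log2(RPKM + 1) understate those of low models. No 2 libraries held identical values. Named models were the members, those with the same best match, the nearest model on each side, and the 2 most alike. The overlapping partners were named as neighbours or most alike, and S26.g12147 and S447.g02162 after their values were seen. Deviations of same-numbered vegetal and animal libraries correlated at 0.402 to 0.489 at 110 cells and 0.372 to 0.583 at 8 cells, so numbers were taken to pair hemispheres. The SE, intervals and adjusted p given for single models come from the fit without this pairing. Counts from a fit blocked by replicate number are given below. Same-numbered whole embryos of the stages correlated at 0.395, 0.327, 0.416 and 0.081 in numbers 2 to 5, against -0.249 to 0.0105 between different numbers. With the low value in number 5, whole embryos of the stages were not taken as paired. Other pseudocounts, filters, scalings, fits and left-out libraries were tried. The members and lists were chosen with earlier results of these data known.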

Additional observations from a re-analysis of the deposited data

Results flagged for a closer look

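Each member was looked at in each group of 4 libraries, and in 2 of the 30 sets 1 library stood apart by Dixon's criterion at 95%, where about 1 in 20 sets would by chance. S138.g03243 stood at 7.67 RPKM in animal library 4 at 8 cells, below 8.91 to 9.09 RPKM in the other 3. S264.g00180 stood at 110.8 RPKM in vegetal library 2 at 8 cells, below 163 to 167 RPKM in the other 3. Both are libraries of the stage on which the members were chosen, and the causes were not tested.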

How the results depend on the processing

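At 110 cells 4 of the 5 members were called vegetal-higher under each of 20 alternatives, and S338.g12774 under 17, with a log2 difference of 0.95 to 1.28 and limma adjusted p of 7.46e-05 to 0.124. The exceptions are given with its values in the report. The replicate block called all 5. Over all models, 1163 were called between the hemispheres at 110 cells, against 670 with a filter of 5 RPKM, 745 in a fit of the 2 groups alone and 1824 with the replicate block (913 vegetal-higher and 911 animal-higher), and 884 to 1156 when replicates or libraries were left out. At 8 cells 15 were called (345 at an unadjusted p under 0.05), against 39 with the replicate block (33 vegetal-higher and 6 animal-higher) and 7 to 17 when replicates or libraries were left out, with 7 without replicate 3 and 9 without replicate 5. The choice itself depended on these settings: 4 of the 5 members were called at 8 cells in a fit of the 2 groups alone and without replicate 3 or 5. With the replicate block 1 member, S338.g12774, was called between stages in whole embryos, where 2464 of 12703 models were called higher and 2137 lower at 110 cells. The causes were not tested. Of 10 repeats with another measure of likeness, 7 named at least 1 other model.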
